A study of Mus musculus with 15 samples.

Results

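Hematopoietic stem cells (HSCs) carrying the GFI1-36N variant were compared directly with HSCs carrying the GFI1 knock-down allele. These were the 3 libraries titled GFI1-36N and the 3 titled GFI1-KD, 6 of the 15 libraries of the series, chosen by their titles and not by any measured value. GFI1-36N HSCs came from mice labelled as homozygous for the 36N allele of human GFI1 (36N/36N). GFI1-KD HSCs came from mice labelled KD/KD, in which human GFI1 replaces the mouse gene together with a Neo cassette of opposite orientation that lowers its expression. GFI1-KI (titled GFI1-36S, human GFI1 in the mouse locus), Gfi1-KO and Gfi1-WT libraries, 3 of each, are given only for orientation. All cells were untreated and came from a sort for the HSC phenotype (Lin−Sca1+c-Kit+ with CD150 and without CD48), and no age or sex is given. The labels do not say that the libraries of a genotype came from separate mice, so that p-values measure the spread between these libraries, which may be technical. A knock-down allele still makes some GFI1, and both alleles are present in every cell of the mouse, not in HSCs alone. The study's methods describe the 36S, knock-out and knock-down strains, and the 36N strain is known here by its labels.

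GFI1 is a zinc finger transcriptional repressor that recruits histone demethylase and deacetylase complexes to its target genes. In the blood system it restrains the proliferation of HSCs, favours neutrophil over monocyte development and competes with the activity of PU.1 (Spi1). In the 36N variant a serine of the human protein is replaced by asparagine, and the variant is known from work on acute myeloid leukaemia. Setting it against the knock-down allele asks whether an altered GFI1 protein and a lowered amount of GFI1 leave HSCs with different transcripts.

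No gene passed an adjusted p of 0.05 between GFI1-36N and GFI1-KD HSCs (0 of 13358 genes tested, 0%, edgeR's quasi-likelihood test with Benjamini-Hochberg adjustment, lowest adjusted p = 0.539). Within that limit, the genes with the lowest p included Arhgap19, Gmfg and Gdf3, lower in GFI1-36N, and Ccdc127, Phactr2 and Mysm1, higher in GFI1-36N. By their median, markers of multipotent progenitors and granulocytes lay lower, and immediate early genes higher, in GFI1-36N than in GFI1-KD. At an unadjusted p under 0.05 there were 645 genes, 245 higher (1.83%) and 400 lower (2.99%) in GFI1-36N. At an unadjusted p under 0.01 there were 20 higher (0.15%) and 62 lower (0.464%). The libraries of both genotypes did not overlap, in counts normalised to library size with TMM factors (CPM, counts scaled to a common library total), for 425 genes higher (3.18%) and 736 lower (5.51%) in GFI1-36N. Without GFI1-36N replicate 3, which leaves 2 libraries against 3 and so separates more genes, 1437 were higher (10.8%) and 1125 lower (8.42%) without overlap, and the excess of lower genes was not seen. The shares with all libraries are the background for every count of genes below. Each tested gene named from here on had an adjusted p of 0.923 or more by edgeR with all libraries, except Arhgap19. The 12 genes named for the lowest p in each direction had an unadjusted p under 0.01. limma-trend and limma-voom also called 0 genes, whereas DESeq2 called 384, of which 250 had a value of 0 in each of the 3 libraries of a genotype. The number of genes at p under 0.05 was the second highest of the 10 pairs of genotypes, after the 743 of GFI1-36N and Gfi1-KO. The 4 pairs with GFI1-36N had 611 to 743 such genes, and the 6 pairs without it 279 to 410.

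A GFI1-36N library stood apart before any comparison was made. GFI1-36N replicates 1, 2 and 3 held 18.35, 18.47 and 17.47 M estimated counts, and GFI1-KD replicates 1, 2 and 3 held 16.71, 20.24 and 18.3 M. Genes above 0 numbered 13738, 13353 and 9415 in the GFI1-36N libraries, against 11631, 13637 and 14393 in the GFI1-KD libraries. GFI1-36N replicate 3 therefore had the fewest genes at a similar depth, with 38.5% of the tested genes at 0. Its median Spearman correlation with the other libraries was 0.557, while GFI1-KD replicate 1, the next lowest, reached 0.682. Between the genotypes the 9 pairs of libraries correlated at 0.555 to 0.824, and within GFI1-36N the 3 pairs at 0.557 to 0.775. In GFI1-36N replicate 3, 2306 genes were at 0 that averaged above 10 CPM in the other 5 libraries, and 36 of the 62 genes lower at p under 0.01 were at 0 there. Values without this library are therefore given for the gene lists described and for many of the genes. Without it 62 genes had a p under 0.01, of which 30 (9 higher and 21 lower) were among the 82 of all libraries. Reads of Y-linked genes also split the libraries, as Ddx3y stood at 247, 244 and 0 CPM in GFI1-36N replicates 1, 2 and 3 and at 53.7, 0 and 127 CPM in GFI1-KD replicates 1, 2 and 3. Leaving out the library with the lowest Ddx3y of each genotype (GFI1-36N replicate 3 and GFI1-KD replicate 2) left 392 genes at p under 0.05. Ddx3y did not exceed 0.3 CPM in any GFI1-KI, Gfi1-KO or Gfi1-WT library. The part of this difference in comparisons with those libraries was not tested.

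**Figure D1:**
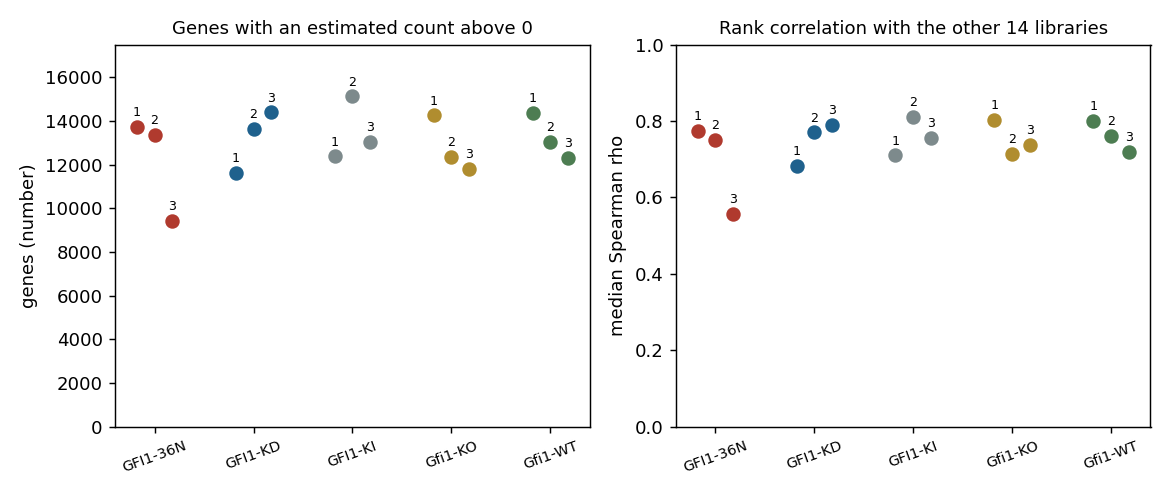
Genes with an estimated count above 0 (left, number of genes) and the median Spearman rank correlation with the other 14 libraries (right) for each of the 15 libraries, with the replicate number above each point. GFI1-36N replicate 3 lies lowest on both axes, at 9415 genes and 0.557.

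The alleles themselves cannot be read from these values, because reads were assigned to mouse transcripts and both strains carry human GFI1. Mouse Gfi1 (ENSMUSG00000029275, chromosome 5, 107716657 to 107726036, minus strand, GRCm38) had 422, 73 and 0 estimated counts in the GFI1-36N libraries, against 0, 0 and 267 in the GFI1-KD libraries. Each genotype thus held at least 1 library at 0. The mean was 165 in GFI1-36N and 88.9 in GFI1-KD, a difference of 76.2 (exact permutation test, two-sided, p = 0.7, where 0.1 is the smallest p that 3 against 3 libraries allow). Gfi1-WT libraries, which carry the mouse gene, had 5, 0 and 0, so the mouse Gfi1 count checks no label. Gfi1b, the paralogue expressed in erythroid and megakaryocytic cells, was at 121, 214 and 479 CPM in GFI1-36N and 282, 146 and 146 CPM in GFI1-KD, and the groups overlapped. Irf8 and Spi1, which encode transcription factors of monocyte development, did not exceed 1.06 and 3.71 CPM in GFI1-36N or 3.09 and 10.1 CPM in GFI1-KD.

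The sorted phenotype was visible in the transcripts. Kit, the stem cell factor receptor, was at 386, 374 and 159 CPM in GFI1-36N and 401, 363 and 542 CPM in GFI1-KD. Slamf1, which encodes CD150, was at 77, 74.5 and 412 CPM in GFI1-36N and 75.3, 77.5 and 98.2 CPM in GFI1-KD. Both genes overlapped between the genotypes. Cd48, the marker the gate excludes, was at 3.07, 0 and 0 CPM in GFI1-36N and 0, 22.4 and 3.35 CPM in GFI1-KD. Fcgr3 was listed at 0 in all 6 libraries, and Itgam (CD11b) only in GFI1-KD replicate 3 above 0, at 3.14 CPM. Ly6a, which encodes Sca-1, stood at 29.2, 20.8 and 69 CPM in GFI1-36N and 29.8, 33.2 and 60.8 CPM in GFI1-KD. Of the gate list, which also holds genes that the HSC sort did not use, Cd34 alone did not overlap. It was at 212, 146 and 157 CPM in GFI1-36N against 287, 351 and 397 CPM in GFI1-KD (log2 fold change −1.01, SE 0.73, adjusted p = 1 by edgeR). The study used CD34 to gate progenitors and not to sort HSCs. CD34 is a surface sialomucin that long-term HSCs of the mouse lack and multipotent progenitors carry.

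For the genes with the lowest p, the promoter letters are shown first, since GFI1 binds DNA through a core of the letters AATC. The 250 bases before the RefSeq start (GRCm38.p6) are printed 5′ to 3′ on the gene's strand, with AATC and its reverse complement GATT in capitals. They belong to Arhgap19 and Gmfg, the named genes with the lowest p among those lower in GFI1-36N, and to Mysm1. Mysm1 lay higher, but other named genes in that direction, such as Ccdc127, had a lower p.
Arhgap19: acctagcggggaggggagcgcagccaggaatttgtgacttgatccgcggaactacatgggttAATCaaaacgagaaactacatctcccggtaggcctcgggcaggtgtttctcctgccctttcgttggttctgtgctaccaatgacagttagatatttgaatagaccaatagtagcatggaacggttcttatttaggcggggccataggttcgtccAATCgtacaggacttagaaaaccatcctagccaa
Gmfg: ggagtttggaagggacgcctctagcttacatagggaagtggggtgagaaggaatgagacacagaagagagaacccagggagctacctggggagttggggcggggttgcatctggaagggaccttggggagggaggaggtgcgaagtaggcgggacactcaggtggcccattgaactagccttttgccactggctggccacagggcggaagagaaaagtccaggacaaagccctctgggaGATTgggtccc
Mysm1: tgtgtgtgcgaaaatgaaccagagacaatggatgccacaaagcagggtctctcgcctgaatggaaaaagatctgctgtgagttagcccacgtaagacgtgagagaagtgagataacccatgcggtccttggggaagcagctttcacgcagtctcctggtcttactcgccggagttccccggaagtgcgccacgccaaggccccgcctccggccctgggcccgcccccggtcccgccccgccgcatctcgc
The windows are chr19:41802085-41802334 on the minus strand, chr7:28437219-28437468 on the plus strand and chr4:94979101-94979350 on the minus strand. They hold 2, 1 and 0 such motifs. Of 32851 RefSeq promoters 69% hold at least 1 in the same 250 bases, and 9.14% hold the longer AATCAC or its reverse complement GTGATT. Among the named genes with a promoter in the table, AATC or GATT was found in 4 of 8 that lay higher and 6 of 8 that lay lower. The longer AATCAC or GTGATT was found in 1 of 8 that lay higher and 0 of 8 that lay lower. These matches are letters in a window and not binding sites.

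Arhgap19 (ENSMUSG00000025154, chromosome 19, 41766588 to 41802047, minus strand), a GTPase-activating protein for RhoA expressed in dividing blood cells, was nearly absent from GFI1-36N HSCs. It had 0, 0.153 and 0 CPM in GFI1-36N, against 24.4, 46.2 and 43.4 CPM in GFI1-KD, with no overlap. In counts this was 3 over the GFI1-36N libraries and 2198 over the GFI1-KD libraries, a ratio of GFI1-KD to GFI1-36N of 720 at equal depth (95% exact Poisson interval 246 to 3490, counting error only). It had the lowest p of the comparison (adjusted p = 0.539 by edgeR, and adjusted p = 0.518 without GFI1-36N replicate 3). GFI1-KI held 51, 48.6 and 46.4 CPM, and the lowest of the other 9 libraries was 7.91 CPM, in Gfi1-WT. GFI1-36N was thus the genotype that stood apart, and GFI1-KD was not.

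Gdf3, a ligand of the TGF-beta family, showed the same arrangement. It was at 11.8, 11.5 and 0.25 CPM in GFI1-36N, against 221, 119 and 84.8 CPM in GFI1-KD. The log2 fold change was −4.17 (SE 1.04), and −3.6 without GFI1-36N replicate 3. GFI1-KI libraries had 43.7 to 85.9 CPM, above all GFI1-36N libraries. Cep170, a centriole and microtubule protein, was at 1.35, 1.07 and 0.0625 CPM in GFI1-36N and 66.8, 84.5 and 18.4 CPM in GFI1-KD (log2 fold change −6.08, SE 1.42, and −5.54 without GFI1-36N replicate 3). Its lowest value in the 12 libraries outside GFI1-36N was 9.7 CPM, in GFI1-KI. Pxn, which encodes the focal adhesion adaptor paxillin, had 3 counts over the GFI1-36N libraries against 1828 over those of GFI1-KD (ratio of GFI1-KD to GFI1-36N 599, 95% exact Poisson interval 205 to 2910). In GFI1-KD Pxn was at 71.4, 18.6 and 14.5 CPM, with replicate 1 highest.

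In Gmfg (ENSMUSG00000060791, chromosome 7, 28437447 to 28448233, plus strand), the arrangement differed. Gmfg encodes glia maturation factor gamma, which takes apart branches of actin made by the Arp2/3 complex in blood cells. It was at 396, 406 and 632 CPM in GFI1-36N, against 1130, 959 and 885 CPM in GFI1-KD (mean 478 ± 133 against 990 ± 124, SD, n = 3 each). The log2 fold change was −1.05 (SE 0.23), and −1.31 without GFI1-36N replicate 3. GFI1-KI libraries held 321 to 383 CPM and Gfi1-WT libraries 338 to 397 CPM, near GFI1-36N, while Gfi1-KO libraries held 593 to 916 CPM. For Gmfg both genotypes lay apart from GFI1-KI, GFI1-KD by more, and GFI1-KD overlapped Gfi1-KO.

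Another 3 genes, Wdr41, Mrm2 and Srbd1, were listed at 0 in every GFI1-36N library. Zeros also occurred elsewhere: Wdr41 in Gfi1-KO replicate 2 and Gfi1-WT replicate 1, Mrm2 in GFI1-KI replicate 3 and Srbd1 in GFI1-KI replicate 1. Wdr41 was at 94.1, 71.5 and 9.99 CPM in GFI1-KD and did not exceed 28.5 CPM in any other genotype. Against a floor of 3 counts per library, Wdr41 was at least 350-fold lower in GFI1-36N than its mean of 58.5 CPM in GFI1-KD. This bound and those that follow cover counting error only, not the spread between libraries. Mrm2, a methyltransferase of mitochondrial ribosomal RNA, was at least 139-fold lower, and Srbd1 at least 65.8-fold lower. Without the highest GFI1-KD library (replicate 1 for Wdr41 and Mrm2, replicate 3 for Srbd1) these bounds were 244-fold for Wdr41, 82.6-fold for Mrm2 and 27.6-fold for Srbd1. Rtn4ip1, a mitochondrial reductase, and Sec16a, a scaffold of vesicle exit sites of the endoplasmic reticulum, reached 0.0508 and 0.153 CPM in a single GFI1-36N library. In GFI1-KD their libraries stood at 9.47 to 39.4 CPM for Rtn4ip1 and 5.25 to 137 CPM for Sec16a. Tmem18 was at 0, 0 and 0.125 CPM in GFI1-36N and at 81.7, 19.8 and 28.4 CPM in GFI1-KD. Tacc1, a centrosome-associated protein, was measured well in all libraries, at 386, 272 and 198 CPM in GFI1-36N and 495, 578 and 586 CPM in GFI1-KD (log2 fold change −0.95, SE 0.26, and −0.75 without GFI1-36N replicate 3).

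**Figure D2:**
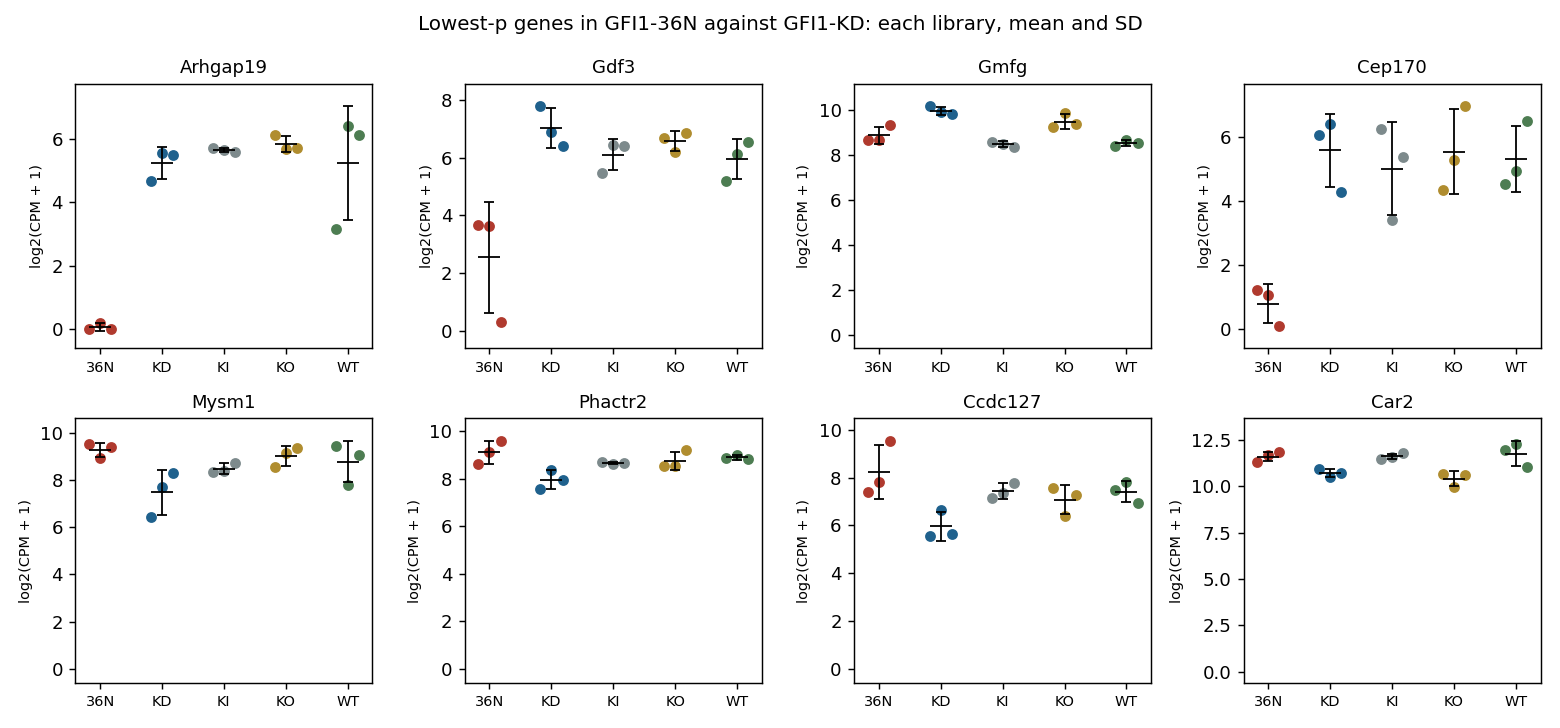
Level of 8 genes in each of the 15 libraries as log2(CPM + 1), with the 5 genotypes on the x axis, points for libraries, and the mean and SD of each genotype in black. Arhgap19, Gdf3 and Cep170 are low in GFI1-36N alone, whereas Gmfg is higher and Car2 lower in GFI1-KD than in GFI1-36N and GFI1-KI.

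The next genes lay higher in GFI1-36N. Mysm1 (ENSMUSG00000062627, chromosome 4, 94942040 to 94979100, minus strand), a histone H2A deubiquitinase that HSCs need for their maintenance, was at 734, 490 and 672 CPM in GFI1-36N and 85.7, 207 and 316 CPM in GFI1-KD. The log2 fold change was 1.64 (SE 0.47), and 1.59 without GFI1-36N replicate 3. GFI1-KI stood at 323, 334 and 427 CPM, between both genotypes. Gfi1-WT, at 708, 224 and 542 CPM, overlapped both, and Gfi1-KO stood at 372, 575 and 664 CPM. Ash1l, a histone H3 lysine methyltransferase, was at 195, 238 and 409 CPM in GFI1-36N and 28.2, 93.3 and 102 CPM in GFI1-KD. Skil, which encodes the SMAD repressor SnoN, was at 202, 30.2 and 770 CPM in GFI1-36N and 26.6, 15.8 and 23.8 CPM in GFI1-KD. Senp6, a SUMO protease, was at 152, 111 and 252 CPM in GFI1-36N and 34, 42.2 and 43.6 CPM in GFI1-KD, and the GFI1-36N libraries lay above all 12 others. Mov10, an RNA helicase, was at 10.8, 0.407 and 41.5 CPM in GFI1-36N and 0.0615, 0 and 0 CPM in GFI1-KD.

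Runx1t1, the corepressor known as ETO and a partner of GFI1, was close to the detection limit in GFI1-KD. It was at 28.9, 36.9 and 350 CPM in GFI1-36N, against 0.0615, 0.193 and 0 CPM in GFI1-KD. GFI1-KI libraries ranged from 5.76 to 94.2 CPM, and both Gfi1-KO and Gfi1-WT had libraries at 0. GFI1-36N replicate 3 was highest, and the log2 fold change of 10.55 (SE 3.23) stood at 8.48 without it.

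Ccdc127, a coiled-coil protein, was at 167, 225 and 738 CPM in GFI1-36N and 46.3, 99.6 and 49 CPM in GFI1-KD. Its log2 fold change of 2.54 (SE 0.58) was the one with the lowest p in the upward direction, and it stood at 1.59 without GFI1-36N replicate 3. Phactr2, a regulator of phosphatase 1 and actin, was at 392, 553 and 757 CPM in GFI1-36N and 188, 326 and 245 CPM in GFI1-KD (log2 fold change 1.16, SE 0.28, and 0.9 without GFI1-36N replicate 3). The GFI1-KD libraries of Phactr2 lay below all 12 others. Rspry1 ranged from 76.8 to 249 CPM in GFI1-36N and from 9.47 to 49.8 CPM in GFI1-KD, the mitochondrial nucleotide carrier Slc25a36 from 203 to 381 CPM and from 41 to 138 CPM, and the phosphatase Ptp4a1 from 321 to 779 CPM and from 82.6 to 200.0 CPM.

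Car2, the carbonic anhydrase of the erythroid lineage, was abundant in every library. It was at 2520, 3250 and 3600 CPM in GFI1-36N, against 1970, 1460 and 1660 CPM in GFI1-KD (mean 3120 ± 551 against 1700 ± 259, SD, n = 3 each). The log2 fold change was 0.88 (SE 0.27), and 0.76 without GFI1-36N replicate 3. GFI1-KI had 2850 to 3480 CPM, close to GFI1-36N, and Gfi1-KO 978 to 1600 CPM. Other erythroid markers went both ways. Rhd, which encodes the Rh antigen, was at 4.31, 16.3 and 112 CPM in GFI1-36N and listed at 0 in all GFI1-KD libraries (unadjusted p under 0.05). The globin gene Hbb-bt was at 7.21, 12.9 and 8.19 CPM in GFI1-36N and 47.1, 19.8 and 58 CPM in GFI1-KD. Of 18 erythroid genes tested, 8 were higher and 9 lower in GFI1-36N (median log2 fold change 0, and 0.28 without GFI1-36N replicate 3), with 2 higher and 2 lower without overlap.

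Leaving GFI1-36N replicate 3 out brought other genes to the front. Spidr, a scaffold of homologous recombination repair, was at 0.215, 0.61 and 268 CPM in GFI1-36N replicates 1, 2 and 3, against 97.9, 54.3 and 54.7 CPM in GFI1-KD. Its log2 fold change was 0.38 with all libraries (adjusted p = 1 by edgeR) and −7.36 without replicate 3 (adjusted p = 0.124), so that 1 library sets its direction. Cbfa2t2, a paralogue of Runx1t1, was at 466, 316 and 46.5 CPM in GFI1-36N and 89.6, 125 and 111 CPM in GFI1-KD. Sp140, a chromatin reader of immune cells, was at 82.4, 88.8 and 38.7 CPM in GFI1-36N and 2.89, 13.5 and 20.1 CPM in GFI1-KD. The zinc finger gene Zbtb38 (536 to 1480 against 340 to 427 CPM) did not overlap, and Arhgef5 (0 to 22.3 against 0.0615 to 0.309 CPM) overlapped through replicate 3.

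Over all tested genes, the position of GFI1-KI was counted too. Of the 425 genes higher without overlap in GFI1-36N, the GFI1-36N libraries also lay above all GFI1-KI libraries for 135, and the GFI1-KD libraries lay below all those of GFI1-KI for 91. Both held for 8 of them, and for 207 neither genotype lay apart from GFI1-KI. Of the 736 lower genes the corresponding numbers were 216, 167, 8 and 361. Against all 12 other libraries, few of the 13358 genes tested lay apart. GFI1-36N was above for 39 genes and below for 35, and GFI1-KD above for 24 and below for 6. How many genes would lie apart without a difference between genotypes was not tested. Among the 35 were Homer3, Stil and Fasn, which were named after their values were seen.

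Of the gene lists, that of multipotent progenitor markers (MPP) had 14 of 15 tested members lower and 1 higher in GFI1-36N. The median log2 fold change was −1.62, against −0.05 over all genes tested, and −2.48 without GFI1-36N replicate 3. No member passed p under 0.05, and 2 of the 15, Cd34 and Plac8, did not overlap, beside a background of 5.51%. Plac8, a lysosomal protein of early progenitors, was at 44.4, 0.356 and 81.2 CPM in GFI1-36N and 387, 218 and 136 CPM in GFI1-KD (log2 fold change −2.56, SE 1.2). The chemokine Ccl9 was at 0.7, 1.17 and 0 CPM in GFI1-36N and 0.492, 0.722 and 57.1 CPM in GFI1-KD, and Cebpa, a transcription factor of granulocyte commitment, above 0 in GFI1-KD replicate 2 alone, at 6.88 CPM. Several members thus rest on a single GFI1-KD library. As a mean of log2(CPM + 1) the list stood at 2.29, 1.46 and 1.74 in GFI1-36N and at 2.69, 3.05 and 3.91 in GFI1-KD, without overlap. In bulk RNA fewer cells of a type and less RNA per cell cannot be told apart.

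The granulocyte list pointed the same way, with 7 of 10 tested members lower and 2 higher (median −1.71, and −2.98 without GFI1-36N replicate 3). Without GFI1-KD replicate 1 as well the median was −0.81, and over 18 alternatives it ranged from −3.21 to −0.71. The other 10 of the 20 markers did not pass the filter on low counts. Elane, neutrophil elastase, was at 0, 4.17 and 0 CPM in GFI1-36N and 103, 14.2 and 21 CPM in GFI1-KD, and did not overlap. Ms4a3, a marker of granulocyte and monocyte progenitors, was at 16.4, 0 and 0 CPM against 19.2, 23.7 and 26.5 CPM. Csf3r, the receptor for G-CSF, was at 0, 0.508 and 0 CPM in GFI1-36N and 0, 2.84 and 42.2 CPM in GFI1-KD (unadjusted p under 0.05). S100a8 was above 0 only in GFI1-KD replicate 1, and Ctsg in 2 GFI1-KD libraries. S100a9 went the other way, at 0, 4.73 and 0 CPM in GFI1-36N and listed at 0 in all GFI1-KD libraries. The mean of log2(CPM + 1) was 1.18 to 1.6 in GFI1-36N and 2.57 to 3.58 in GFI1-KD. GFI1-KI libraries spanned 1.22 to 5.52 and Gfi1-KO libraries 1.65 to 5.73, so that the range within a genotype was wider elsewhere in the series. A list of S100, granule and Fc receptor genes, which shares Elane, Mpo, Prtn3 and Ctsg with it, stood at 2.88 to 3.88 in GFI1-36N and 4.58 to 4.85 in GFI1-KD. Its median log2 fold change was −0.38, but −0.13 without GFI1-36N replicate 3 and −0.01 without GFI1-KD replicate 1 as well.

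**Figure D3:**
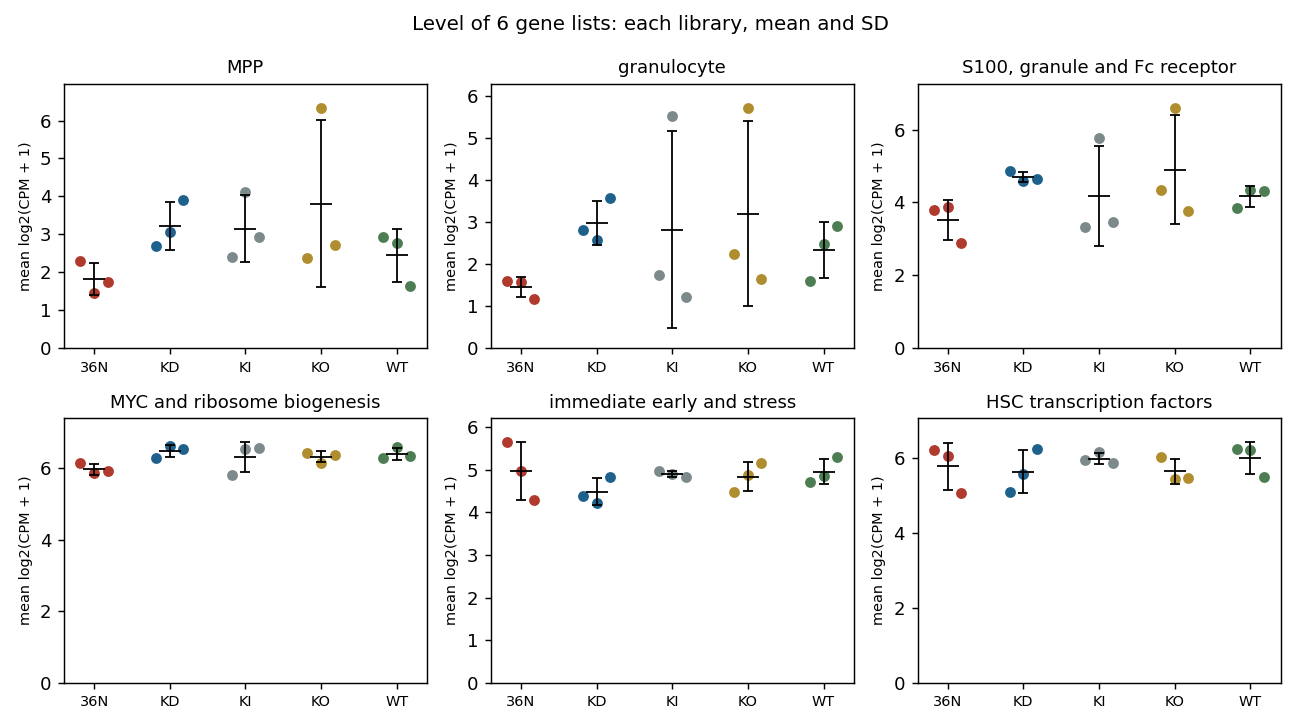
Mean log2(CPM + 1) over the tested members of 6 gene lists in each of the 15 libraries, with the 5 genotypes on the x axis, points for libraries, and the mean and SD in black. By this mean the MPP, granulocyte, S100 and MYC lists do not overlap between GFI1-36N and GFI1-KD, and the immediate early and HSC transcription factor lists do. The MYC list had 18 members higher and 18 lower in GFI1-36N (median log2 fold change 0). Its summed CPM overlapped, at 7090 to 11700 in GFI1-36N and 7710 to 9120 in GFI1-KD.

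As a mean of log2(CPM + 1), markers of other cell types overlapped between the genotypes, apart from those of mast cells and basophils. The B cell list stood at 3.85 to 5.82 in GFI1-36N and 5.07 to 5.35 in GFI1-KD, the monocyte list at 1.32 to 2.32 and 1.7 to 3.07, and the megakaryocyte list at 4.14 to 5.58 and 5.08 to 5.78. That of mast cells and basophils stood at 1.71 to 3.43 in GFI1-36N and 3.45 to 4.14 in GFI1-KD, a narrow gap. Of its 9 tested members 2 were higher and 6 lower in GFI1-36N (median −0.13). Its summed CPM overlapped, at 892 to 1330 in GFI1-36N and 1020 to 1300 in GFI1-KD. The T and NK cell list overlapped by this mean (2.59 to 4.33 in GFI1-36N and 3.89 to 4.69 in GFI1-KD) but not by its summed CPM (252 to 453 in GFI1-36N and 500 to 589 in GFI1-KD). Of its 6 tested members 3 were higher and 3 lower in GFI1-36N (median 0.28, and −0.11 without GFI1-36N replicate 3). Nkg7, a granule gene of NK cells and the member with the lowest p, made up most of the GFI1-KD sum. It was at 227, 123 and 285 CPM in GFI1-36N and 489, 425 and 409 CPM in GFI1-KD (unadjusted p under 0.05). Cd247 went the other way, at 1.02, 3.25 and 0 CPM in GFI1-36N and listed at 0 in all GFI1-KD libraries. Cd74, the invariant chain of MHC class II, was at 769, 936 and 161 CPM in GFI1-36N and 179, 96.5 and 224 CPM in GFI1-KD (unadjusted p under 0.05), beside H2-Ab1 at 174, 211 and 142 CPM against 88.3, 59.6 and 50.2 CPM. Cd79b, a B cell receptor subunit, overlapped at 145, 98.4 and 0.688 CPM in GFI1-36N and 145, 100 and 70 CPM in GFI1-KD. The part of other cell types in these results was not tested.

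HSC markers overlapped too, with 13 of 23 higher and 10 lower (median 0.51, and −0.15 without GFI1-36N replicate 3). Without that library and GFI1-KD replicate 1 or replicate 2 the HSC median was 0.15 or 0.04, so that its sign varied with the libraries used. Cd27, a receptor of the TNF family, was lower without overlap, at 111, 133 and 53.6 CPM in GFI1-36N and 372, 175 and 271 CPM in GFI1-KD (log2 fold change −1.46, SE 0.46, unadjusted p under 0.01). Meis1, a homeodomain factor of HSCs, was at 1270, 1560 and 1480 CPM against 512, 937 and 1290 CPM. Of 30 HSC transcription factors, 22 were higher and 8 lower in GFI1-36N (median 0.37, and 0.38 without GFI1-36N replicate 3). Without overlap 3 of them lay higher and 1 lower. Lmo2, the bridge protein of the SCL complex, was at 256, 214 and 259 CPM in GFI1-36N and 94.4, 132 and 181 CPM in GFI1-KD. Hhex was at 85.9, 88.5 and 150 CPM against 25.3, 27.5 and 74.2 CPM. Fli1 overlapped, at 309, 205 and 160 CPM against 283, 410 and 380 CPM.

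Immediate early and stress genes, which respond within minutes to signalling and to handling of cells, had 28 of 37 tested members higher and 8 lower in GFI1-36N. The median log2 fold change was 0.81, and 0.66 without GFI1-36N replicate 3. At p under 0.05 there were 3 higher and 0 lower, and 6 members were higher without overlap (Egr1, Fos, Fosb, Jun, Klf4 and Dnajb1) and 0 lower. Egr1, a zinc finger factor that holds HSCs in quiescence, was at 328, 185 and 237 CPM in GFI1-36N and 38.1, 67.2 and 77.8 CPM in GFI1-KD (log2 fold change 2.03, SE 0.77, unadjusted p under 0.05). GFI1-KI libraries had 316, 62.4 and 92 CPM and overlapped both. Fos was at 1830, 886 and 962 CPM in GFI1-36N and 698, 586 and 604 CPM in GFI1-KD (log2 fold change 0.96, SE 0.38, unadjusted p under 0.05). Egr3 was above 0 in GFI1-36N replicates 1 and 2, at 4.04 and 1.93 CPM, and listed at 0 in GFI1-KD. Klf4 was at 36.9, 18.9 and 10.6 CPM against 6.77, 0.722 and 2.27 CPM. Nr4a1, another member, reached 390 CPM in GFI1-36N replicate 1 and 0.125 CPM in replicate 3, against 5.51 to 24 CPM in GFI1-KD. The mean over the list overlapped, at 4.3 to 5.64 in GFI1-36N and 4.22 to 4.84 in GFI1-KD. GFI1-KI libraries stood at 4.84 to 4.98, Gfi1-WT libraries at 4.72 to 5.29 and Gfi1-KO libraries at 4.48 to 5.15. Averaged over libraries, GFI1-36N (4.97) lay near GFI1-KI (4.9) and Gfi1-WT (4.95), and GFI1-KD (4.48) was the lowest genotype. Sorting time and handling of the libraries are not given in the labels, and their part was not tested.

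**Figure D4:**
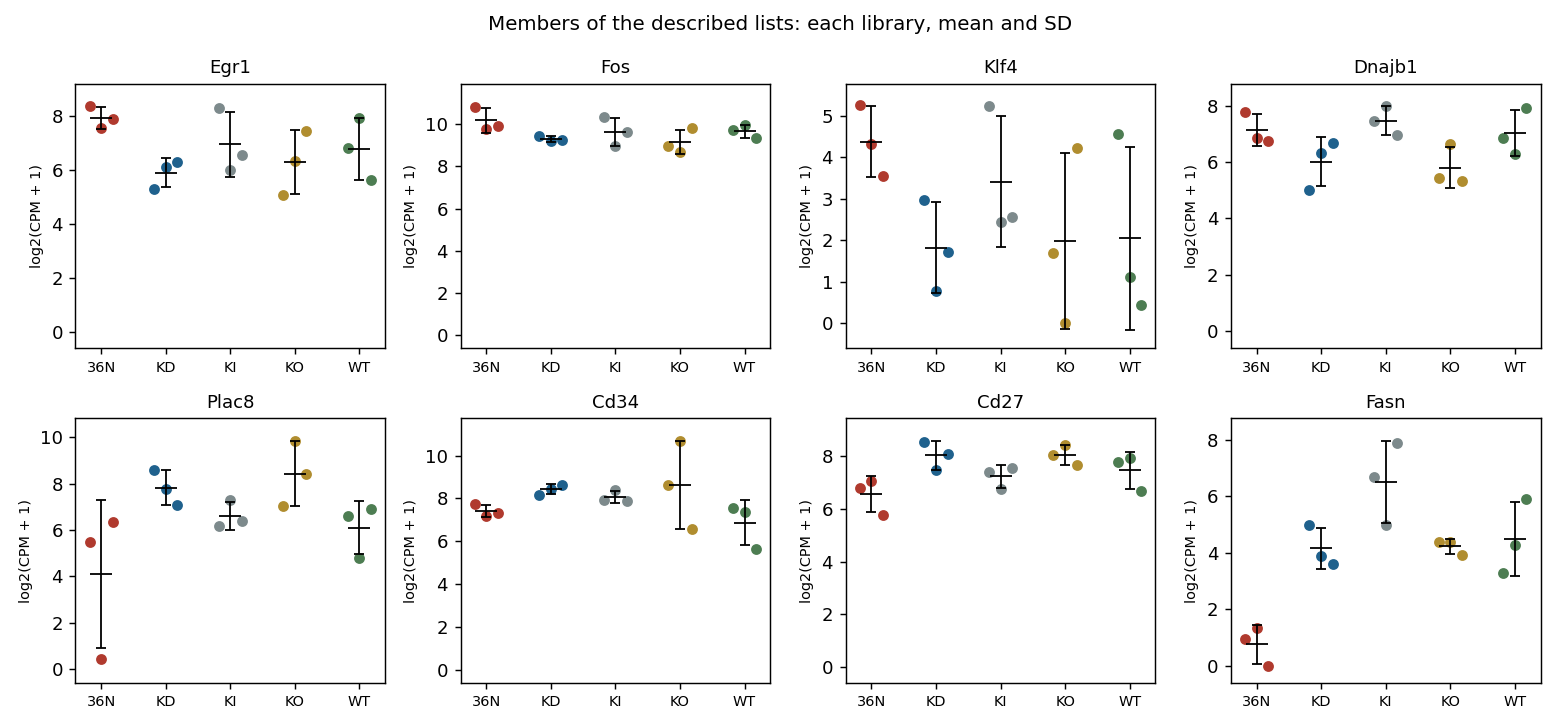
Level of 8 members of the described lists in each of the 15 libraries as log2(CPM + 1), with the 5 genotypes on the x axis, points for libraries, and the mean and SD in black. Egr1, Fos, Klf4 and Dnajb1 are higher in all 3 GFI1-36N libraries than in all 3 of GFI1-KD, and Plac8, Cd34, Cd27 and Fasn lower.

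Genes of the actin cytoskeleton and Arp2/3 complex had 22 of 32 members lower and 10 higher in GFI1-36N (median −0.28, and −0.17 without GFI1-36N replicate 3). Beside Gmfg, 5 members lay lower without overlap and 0 higher: Arpc4, Capza1, Coro1c, Tmsb10 and Wasf2. Arpc4, a subunit of Arp2/3, was at 381, 302 and 413 CPM in GFI1-36N and 516, 541 and 540 CPM in GFI1-KD (log2 fold change −0.54, SE 0.26). Coro1c, a coronin, was at 5.65, 2.08 and 5.38 CPM against 9.1, 72.9 and 38.4 CPM (unadjusted p under 0.05). Actr3, the Arp3 subunit itself, was at 251, 197 and 129 CPM in GFI1-36N and 199, 326 and 592 CPM in GFI1-KD (unadjusted p under 0.05), and overlapped through GFI1-KD replicate 1. Integrins and adhesion genes had 22 of 26 lower and 4 higher (median −0.57, and −0.46 without that library). Itgb2, the beta chain of leukocyte integrins, was at 23.3, 68.6 and 0 CPM in GFI1-36N and 136, 93.5 and 172 CPM in GFI1-KD. Fermt3, which activates integrins, was at 273, 181 and 370 CPM against 329, 643 and 416 CPM and overlapped. Tln1, its partner talin, had an unadjusted p under 0.05 in the other direction through GFI1-36N replicate 3, at 79.1, 71.4 and 725 CPM in GFI1-36N and 31.1, 87.8 and 69.9 CPM in GFI1-KD.

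Of 37 genes of cholesterol and fatty acid synthesis, 26 were lower and 11 higher in GFI1-36N (median −0.65, and −0.38 without GFI1-36N replicate 3). Fasn, fatty acid synthase, was at 0.915, 1.53 and 0 CPM in GFI1-36N and 30.6, 13.8 and 11.3 CPM in GFI1-KD (log2 fold change −4.5, SE 1.43, unadjusted p under 0.01). Hmgcs1, an early enzyme of the mevalonate pathway, was at 30.6, 20.5 and 3.44 CPM against 98.2, 32.1 and 30.5 CPM, and Mvd was listed at 0 in GFI1-36N and in GFI1-KD replicate 1. Srebf2, the transcription factor of the pathway, was at 27.5, 3.66 and 3.88 CPM in GFI1-36N and 29.4, 40.4 and 31.3 CPM in GFI1-KD. In glycolysis 18 of 32 genes were lower and 14 higher (median −0.09, and −0.35 without that library). Ldha, lactate dehydrogenase A, was at 686, 566 and 554 CPM in GFI1-36N and 966, 818 and 847 CPM in GFI1-KD (log2 fold change −0.54, SE 0.22, unadjusted p under 0.05). Pkm, pyruvate kinase, was at 534, 502 and 257 CPM against 895, 567 and 771 CPM, and Hk1, a hexokinase, at 55.2, 11.6 and 0.0625 CPM against 244, 278 and 61.4 CPM (unadjusted p under 0.05). Neither overlapped.

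**Figure D5:**
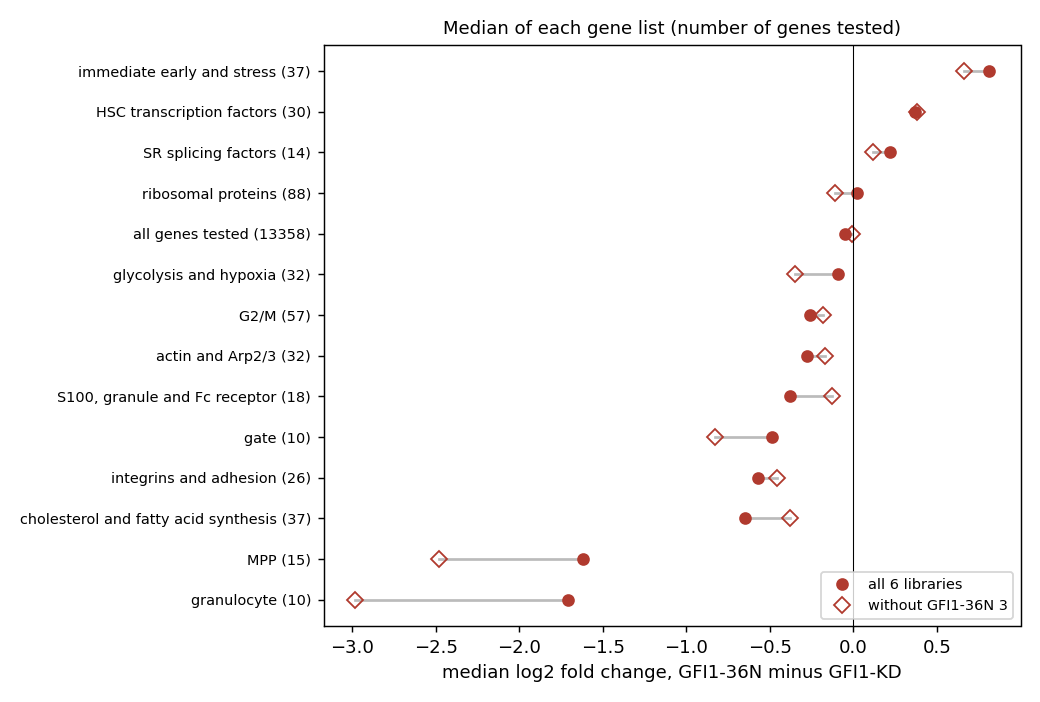
Median log2 fold change of GFI1-36N minus GFI1-KD over the tested members of 13 gene lists and over all 13358 genes (number of genes in brackets), with all 6 libraries (filled circles) and without GFI1-36N replicate 3 (open diamonds). The ribosomal protein median changes sign without that library, and the granulocyte and MPP medians lie farthest from that of all genes.

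Among cell cycle lists, G2/M genes had 43 of 57 lower and 14 higher (median −0.26, and −0.18 without GFI1-36N replicate 3), with 2 lower without overlap, Ctcf and Bub1b. Ctcf, an architectural chromatin protein, was at 51.4, 54.2 and 3 CPM in GFI1-36N and 180, 97.8 and 136 CPM in GFI1-KD (unadjusted p under 0.05). Mki67, the proliferation marker Ki-67, overlapped at 198, 189 and 406 CPM against 155, 201 and 139 CPM, and G2e3 at 103, 241 and 467 CPM against 53.4, 120 and 94.7 CPM (unadjusted p under 0.05). S phase genes were split, with 24 of 44 higher and 20 lower (median 0.04), and without GFI1-36N replicate 3 the split was 15 higher and 29 lower (median −0.23). Cdca7, a MYC-responsive chromatin factor, was at 138, 152 and 135 CPM in GFI1-36N and 279, 240 and 252 CPM in GFI1-KD (log2 fold change −0.86, SE 0.31, unadjusted p under 0.05). Cdk6, which sets the exit of HSCs from quiescence, was at 889, 774 and 638 CPM against 882, 1620 and 1480 CPM (unadjusted p under 0.05), and overlapped through GFI1-KD replicate 1. Of 33 genes in the licensing list 20 were higher and 13 lower (median 0.2, and 0.17 without GFI1-36N replicate 3). Without overlap 3 lay higher, among them Pold1 and Orc5, and 4 lower, among them Dbf4 and Pola2. Dbf4, the activator of the kinase Cdc7, was at 18.3, 14.7 and 2.06 CPM in GFI1-36N and 72.1, 74.4 and 24.7 CPM in GFI1-KD (unadjusted p under 0.05).

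GFI1's own partners were mixed, with 12 of 25 higher and 13 lower (median −0.59), and 9 higher and 16 lower without GFI1-36N replicate 3 (median −0.43). Kdm1a, the demethylase LSD1, was at 82.2, 113 and 0.938 CPM in GFI1-36N and 62, 54.8 and 67.9 CPM in GFI1-KD. Beside Runx1t1, Gse1 was at 0, 0.0508 and 0 CPM against 5.66, 23.2 and 5.82 CPM (unadjusted p under 0.05), and Suv39h1, a histone H3 lysine methyltransferase, at 22.8, 49.2 and 0 CPM against 241, 175 and 104 CPM (unadjusted p under 0.05). Rcor2 was above 0 only in GFI1-KD replicates 1 and 3. Of 33 GFI1 target genes 18 were higher and 14 lower (median 0.31, and 0 without GFI1-36N replicate 3). Ribosomal protein genes had 48 of 88 higher and 40 lower (median 0.02), and 25 higher and 63 lower without that library (median −0.11).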

How the data were processed

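Bulk RNA of sorted HSCs was sequenced after poly(A) selection. The authors quantified reads with Salmon on mouse cDNA of GRCm38, which holds no human GFI1, and the authors deposited estimated counts, scaled from TPM by transcript length and library size, for 35533 gene symbols. Their processing notes name sleuth 0.30.0 and R 4.2.1. Columns were matched to titles by the number that both carry. The row without a gene symbol (0.00679% to 0.0719% of a library) was left out.

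After rounding, edgeR 4.0.16 under R 4.3.3 was used with TMM factors and its filter on low counts (filterByExpr, at least 10 counts and 15 in total). All 15 libraries entered 1 quasi-likelihood fit (10 residual degrees of freedom), with p values adjusted by Benjamini-Hochberg. The common dispersion was 1.94, and a log2 fold change had a median standard error of 1.62. Libraries held 16.22 to 20.64 M estimated counts. Intervals and floors cover counting error only.

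Named genes were Gfi1, Gfi1b, Irf8, Spi1, the genes of the gate, per direction the 12 genes with the lowest p and the 5 with the lowest p without GFI1-36N replicate 3 (no overlap, a mean of at least 10 CPM in the higher genotype, no predicted genes or pseudogenes), and, from each list described, the 3 members of lowest p. Other members were named after their values were seen. Some genes that the rule names are not reported here. The comparison and the 47 lists (1393 of 1404 symbols found) were chosen with earlier results of these data known. Lists were described by counts and medians, without a test. Coordinates are of GENCODE M21 and promoters of RefSeq. Alternatives were DESeq2 1.42.0, limma 3.58.1, other filters and normalizations, the replicate block and leaving out libraries.

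Same-numbered libraries of the genotypes had deviations from the group means that correlated at −0.099, 0.014 and −0.095, so that replicate numbers were not taken as pairs.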

Additional observations from a re-analysis of the deposited data

How the results depend on the processing

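The count of genes with an adjusted p under 0.05 was 0 in all fits except 3: it was 384 with DESeq2, 1 in the fit of the 2 genotypes alone (Gm8730) and 1 without GFI1-36N replicate 1 (Ada), and leaving out single libraries gave 0 to 1. The 82 genes at p under 0.01 became 611 with DESeq2, 169 with limma-trend on log2(CPM + 1) and 250 with sample weights in limma-voom, 48 without both GFI1-36N replicate 3 and GFI1-KD replicate 1, and 50 without both GFI1-36N replicate 3 and GFI1-KD replicate 2 (the last chosen after seeing the data). Single libraries left out gave 61 to 156, the highest without GFI1-36N replicate 1. The 645 genes at p under 0.05 became 1195 with DESeq2, 233 in the fit of the 2 genotypes, 380 and 392 without both pairs of libraries, and 486 to 938 without single libraries. The cause was not tested. With the replicate block the counts were 0, 64 and 486. The Gfi1 difference of 76.2 counts was −52.3 to 165 without single libraries, with −52.3 when GFI1-36N replicate 1 was left out. Spidr had a log2 fold change below 0 with the replicate block (−0.78), limma-trend (−3.06), limma-voom with weights (−6.71), without GFI1-36N replicate 3 (−7.36), and without it and GFI1-KD replicate 1 (−7.01) or replicate 2 (−7.51), and −7.36 to 0.97 without single libraries. The other named genes of lowest p kept their direction in every fit in which they were tested. Because these genes were chosen for libraries without overlap, leaving out libraries could hardly change their direction. The MPP median ranged from −2.92 to −0.9 and the immediate early median from 0.45 to 1.31 over 18 alternatives. With a common dispersion of 1.94 and 3 libraries a genotype, small fold changes were not detectable.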
